A study of Homo sapiens and Mus musculus with 66 samples.

Results

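The windows described here are 100 kb pieces of the human genome (hg19) that were called near the nuclear lamina (NL) in G1, S and G2 cells of the HCT116 line but were missing from the calls made 180 min after release from a nocodazole block. HCT116 is a human colorectal carcinoma line. Of 30970 windows on chromosomes 1 to 22, X and Y, 5508 lay in all of the deposited G1, S and G2 lists and are termed interphase windows. The windows were chosen by their calls in these 3 lists and by the lack of a call in 180m G1, which left 823 of the 5508, 14.9%, termed absent windows. Their state in those 4 lists is therefore a description of the choice and not a result. The other 4685 interphase windows were called in 180m G1 as well and are termed returned windows. The 180m G1 list was not small, since it held 20.5% of all windows, against 20.2% for G1, 22.4% for S and 20% for G2.

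Lamin-B1 cTSA-seq labels chromatin at or near lamin-B1 in fixed cells with biotin-tyramide. The labelled chromatin is fragmented and pulled down with streptavidin, and its DNA is sequenced. In TSA-seq purified DNA is pulled down instead. For 90m G1 and 180m G1, HCT116 cells were held in nocodazole for 16 h by the labels, or somewhat longer by the study's methods, washed, shaken off, replated and sorted for G1 DNA content after 90 or 180 min. The G1, S and G2 cells were sorted from untreated cultures, with G2 also holding mitotic cells, and bulk HCT116 cells were not sorted. Further HCT116 lists came from 1000000, 200000 and 50000 cells. The leukemia line K562 was mapped by cTSA-seq in bulk, and its TSA-seq regions are those of published data as the authors deposited them. The labels give 2 pull-down libraries for each sorted stage and for each bulk culture. For the counted cells they give 2 with 200000 and with 50000 cells but only 1 with 1000000 cells. Only 1 list per condition was used, with no signal, count or depth. No spread between replicates can therefore be computed, no test was made, and how far a window lay from the calling threshold is unknown. Wilson intervals of 95% are given for counting error only. Adjacent windows often belong to 1 call, so these intervals are too narrow.

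The NL is a meshwork of lamins under the inner nuclear membrane. Large, gene-poor, AT-rich and late replicating stretches of chromatin, the lamina-associated domains (LADs), lie against it in interphase. The meshwork comes apart in mitosis and reassembles around the chromosomes as cells enter G1, so LADs have to find the NL anew in every cycle. A call in the lists is relative, because the authors turned each library into a z-score before a 3-state Hidden Markov Model picked the strongest state. An absent window may hold the intermediate state, which was not analysed here.

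The DNA at the centres of 3 of the 10 longest absent stretches is shown first, because these stretches span the range of GC content among the 10 longest. Each sequence is 150 bases of the hg19 plus strand, with CG dinucleotides and the letters TATAAA or its reverse complement TTTATA in capitals. The stretch on chromosome 21 (centre at chr21:21149926-21150075) held 26.7% GC in these bases, that on chromosome 10 (chr10:56599926-56600075) held 30.0% and that on chromosome 19 (chr19:31849926-31850075) held 44.7%.
chromosome 21 centre: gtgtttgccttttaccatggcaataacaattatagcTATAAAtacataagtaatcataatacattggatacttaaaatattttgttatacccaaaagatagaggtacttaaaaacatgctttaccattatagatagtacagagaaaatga
chromosome 10 centre: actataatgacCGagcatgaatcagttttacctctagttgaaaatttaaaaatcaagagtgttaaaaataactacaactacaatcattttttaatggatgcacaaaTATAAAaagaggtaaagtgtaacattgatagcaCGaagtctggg
chromosome 19 centre: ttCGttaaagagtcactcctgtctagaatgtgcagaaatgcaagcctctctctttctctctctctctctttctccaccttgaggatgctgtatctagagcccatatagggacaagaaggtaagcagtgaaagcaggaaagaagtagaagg
There were 0, 2 and 1 CG dinucleotides in them, in the same order. The whole stretches had GC contents of 35.1%, 34.7% and 43.6%.

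Promoters of 6 genes inside absent windows follow, since the gene groups described further on differ in them. They are RefSeq sequences (GRCh38.p14) from 250 bases before to 50 after the start that RefSeq gives, printed in the direction of the gene, and each matched hg19 exactly once, at the coordinates given. For PCDH15 and NCAM2 that start lies 827 kb and 149 kb inside the gene as GENCODE draws it. PCDH15 (chr10:56560942-56561241, minus strand) codes for a protocadherin of inner ear hair cells, NCAM2 (chr21:22519230-22519529, plus strand) for a neural cell adhesion molecule and TSHZ3 (chr19:31840293-31840592, minus strand) for a zinc finger transcription factor. KRTAP24-1 (chr21:31655219-31655518, minus strand) and KRTAP26-1 (chr21:31692584-31692883, minus strand) are keratin-associated proteins of the hair shaft. ZNF208 (chr19:22193696-22193995, minus strand) belongs to the large family of KRAB zinc finger genes of chromosome 19. Capitals again mark CG and TATAAA on either strand.
PCDH15: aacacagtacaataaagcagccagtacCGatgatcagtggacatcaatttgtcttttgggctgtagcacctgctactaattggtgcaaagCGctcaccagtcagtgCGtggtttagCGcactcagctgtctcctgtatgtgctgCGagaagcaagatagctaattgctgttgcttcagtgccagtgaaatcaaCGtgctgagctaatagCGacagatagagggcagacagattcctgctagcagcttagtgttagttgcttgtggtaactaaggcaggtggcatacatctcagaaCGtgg
NCAM2: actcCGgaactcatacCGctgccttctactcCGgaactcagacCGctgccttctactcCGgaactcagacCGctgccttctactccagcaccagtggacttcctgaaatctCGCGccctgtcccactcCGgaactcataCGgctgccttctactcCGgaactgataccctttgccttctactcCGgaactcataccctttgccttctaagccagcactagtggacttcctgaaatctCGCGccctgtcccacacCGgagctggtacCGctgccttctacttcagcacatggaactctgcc
TSHZ3: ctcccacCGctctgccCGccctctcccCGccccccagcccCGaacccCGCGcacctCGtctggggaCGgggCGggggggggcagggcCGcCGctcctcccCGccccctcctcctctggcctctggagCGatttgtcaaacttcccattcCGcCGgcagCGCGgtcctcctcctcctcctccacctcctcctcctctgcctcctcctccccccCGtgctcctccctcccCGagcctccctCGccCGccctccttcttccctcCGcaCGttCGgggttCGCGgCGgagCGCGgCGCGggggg
KRTAP24-1: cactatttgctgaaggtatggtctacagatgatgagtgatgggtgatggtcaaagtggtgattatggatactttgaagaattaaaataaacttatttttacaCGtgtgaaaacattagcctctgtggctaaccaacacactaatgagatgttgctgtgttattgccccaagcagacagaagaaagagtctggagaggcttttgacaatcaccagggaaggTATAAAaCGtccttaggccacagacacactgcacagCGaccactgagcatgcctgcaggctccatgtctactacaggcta
KRTAP26-1: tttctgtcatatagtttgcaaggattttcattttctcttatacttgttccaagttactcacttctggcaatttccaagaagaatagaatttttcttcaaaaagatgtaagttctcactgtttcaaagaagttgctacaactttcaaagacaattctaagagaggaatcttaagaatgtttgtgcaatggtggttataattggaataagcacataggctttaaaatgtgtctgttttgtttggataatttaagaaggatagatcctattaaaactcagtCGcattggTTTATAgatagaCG
ZNF208: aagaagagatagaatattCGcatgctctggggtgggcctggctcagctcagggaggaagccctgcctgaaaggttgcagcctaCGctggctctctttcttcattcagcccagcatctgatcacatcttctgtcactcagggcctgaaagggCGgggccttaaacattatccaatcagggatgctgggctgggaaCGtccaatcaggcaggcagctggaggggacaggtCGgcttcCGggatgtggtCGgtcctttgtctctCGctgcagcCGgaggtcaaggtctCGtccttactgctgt
The promoter of TSHZ3 held 31 CG dinucleotides, that of NCAM2 16, that of ZNF208 10, that of PCDH15 8, that of KRTAP24-1 3 and that of KRTAP26-1 2. Of the 32 keratin-associated genes in absent windows 29 had a promoter in the RefSeq table, and 22 of these (75.9%) held TATAAA on either strand, against 12.0% of the 27305 promoters in the table. The same 29 promoters had a median of 2 CG dinucleotides (0 to 3), while the median of the whole table was 14. A match of these letters is a description and does not show a binding site. Of the 23 ZNF genes in absent windows 17 had a promoter in the table, with a median of 24 CG dinucleotides (9 to 46). ZNF208 with 10 thus lay near the low end of its group. Of all 152 protein-coding genes in absent windows only 113 had a promoter in the table, too few to describe the promoters of the whole set.

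Absent windows were spread very unevenly over the chromosomes. On chromosomes 19 and 22 every interphase window was absent, 48 of 48 and 18 of 18, because the 180m G1 list has no region at all on either chromosome. On chromosome 21, 105 of 137 interphase windows were absent (76.6%, Wilson interval 68.9 to 82.9%), on chromosome 15 68 of 123 (55.3%, 46.5 to 63.8%) and on chromosome 20 65 of 119 (54.6%, 45.7 to 63.3%). These 5 chromosomes held 36.9% of the absent windows but 8.08% of the interphase windows. At the other end, 3 of 530 interphase windows of chromosome X were absent (0.566%), 5 of 233 on chromosome 4 (2.15%), 10 of 359 on chromosome 11 (2.79%) and 21 of 446 on chromosome 8 (4.71%). Together chromosomes 4, 8, 11 and X held 28.5% of the interphase windows and 4.74% of the absent ones. Large chromosomes were not uniformly low, since chromosome 1 lacked 62 of 275 interphase windows (22.5%) and chromosome 10 lacked 68 of 304 (22.4%).

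**Figure D1:**
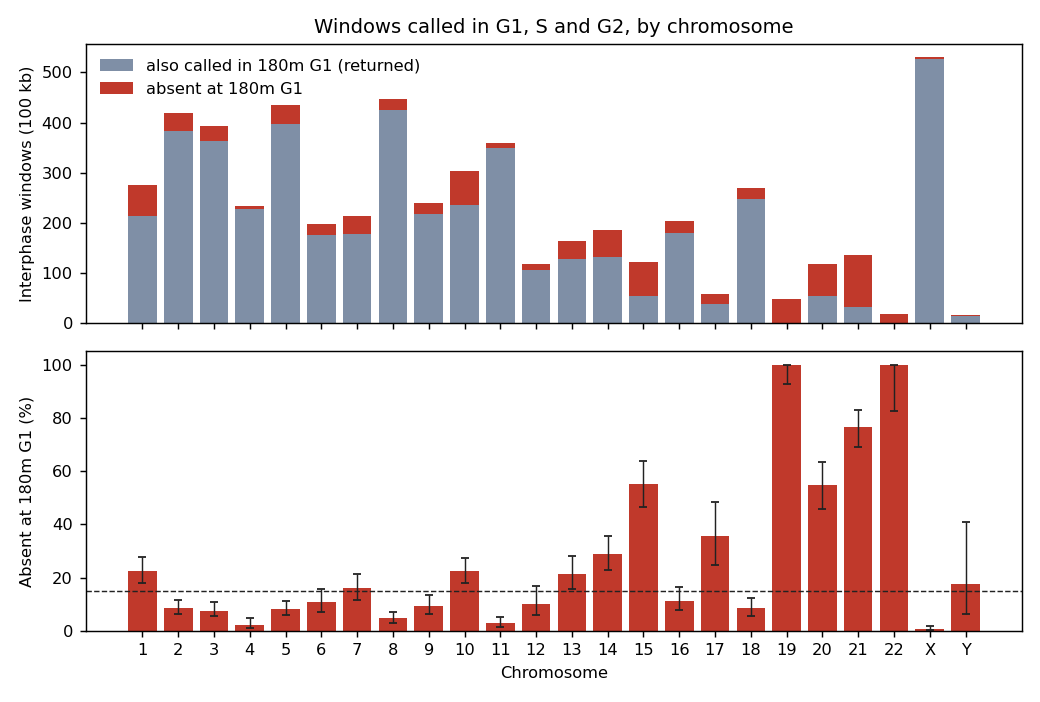
The upper bars count interphase windows of 100 kb on each chromosome, split into those called again in 180m G1 (grey) and those absent (red), and the lower bars give the absent percentage with its Wilson 95% interval and the value for all chromosomes together (dashed line, 14.9%). Chromosomes 19 and 22 stand at 100%, chromosome 21 at 76.6% and chromosome X at 0.566%.

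Across the 24 chromosomes the absent share went down with length (Pearson's r = -0.63, Spearman's rho = -0.65) and up with GC content (r = 0.75, rho = 0.67), while the relation with the density of protein-coding genes was lower (r = 0.55, rho = 0.38). Without chromosomes 19 and 22 these values were -0.55 and -0.54 for length, 0.42 and 0.57 for GC content, and 0.15 and 0.24 for genes. The points are chromosomes of 1 list, they share its normalization, and length, GC content and gene density go together between chromosomes, so the values are given without a p. Chromosome 18 is as short as chromosome 17 in the plot of absent share against length but lacked 23 of 270 interphase windows (8.52%), against 21 of 59 on chromosome 17 (35.6%).

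**Figure D2:**
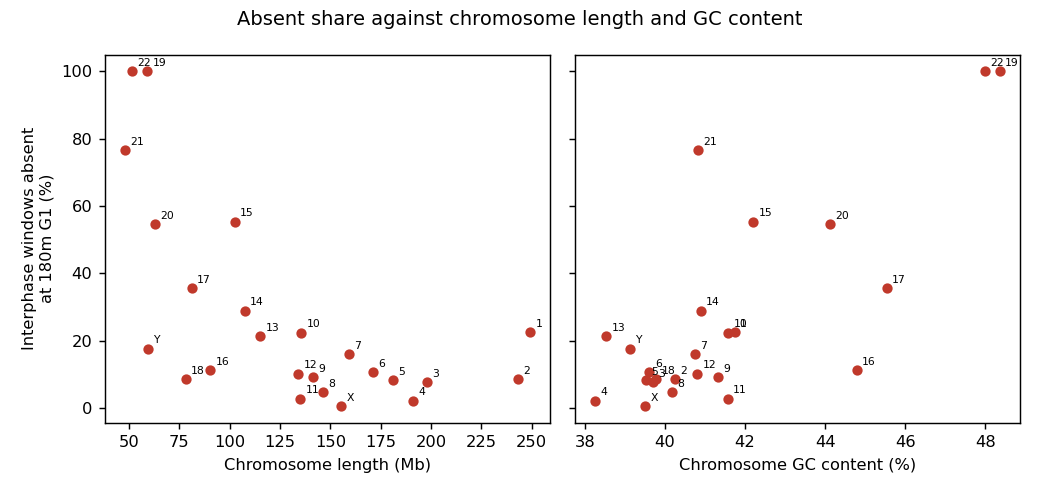
Each point is a chromosome, with the percentage of its interphase windows absent at 180m G1 on the y axis and its length in Mb (left) or its GC content in percent (right) on the x axis. Chromosomes 15, 19, 20, 21 and 22 lie above 50%, and the GC-rich chromosomes 16 and 17 lie at 11.3% and 35.6%.

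The 823 absent windows formed 189 stretches of consecutive windows. Their median size was 300 kb (95% interval of the median over stretches 200 to 300 kb) and their mean 435 kb, with a range from 100 kb to 3.5 Mb. Returned windows formed 316 stretches with a median of 1000 kb. Of the absent stretches 54 were a single window, while the 20 stretches of at least 1 Mb held 317 windows, 38.5% of the total. The rule itself cuts interphase stretches into pieces, so these sizes describe the selection.

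A stretch of absent windows could be a whole interphase stretch, an edge of one or its interior. Whole interphase stretches numbered 69 and held 388 windows (47.1%), with a median of 400 kb. Edges numbered 114 and held 374 windows (45.4%), with a median of 200 kb, and 6 interior stretches held 61. A window called in 180m G1 was the direct neighbour of 128 absent windows (15.6%). The share of interphase stretches that were wholly absent went down with their size. Of 36 interphase stretches of 100 to 200 kb 17 were wholly absent (47.2%), of 63 with 300 to 500 kb 23 (36.5%), of 98 with 600 to 1000 kb 19 (19.4%), of 101 with 1100 to 2000 kb 9 (8.91%) and of 81 larger ones 1 (1.23%). In all, 69 of 379 interphase stretches were wholly absent, 102 were partly absent and 208 had returned over their whole length.

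**Figure D3:**
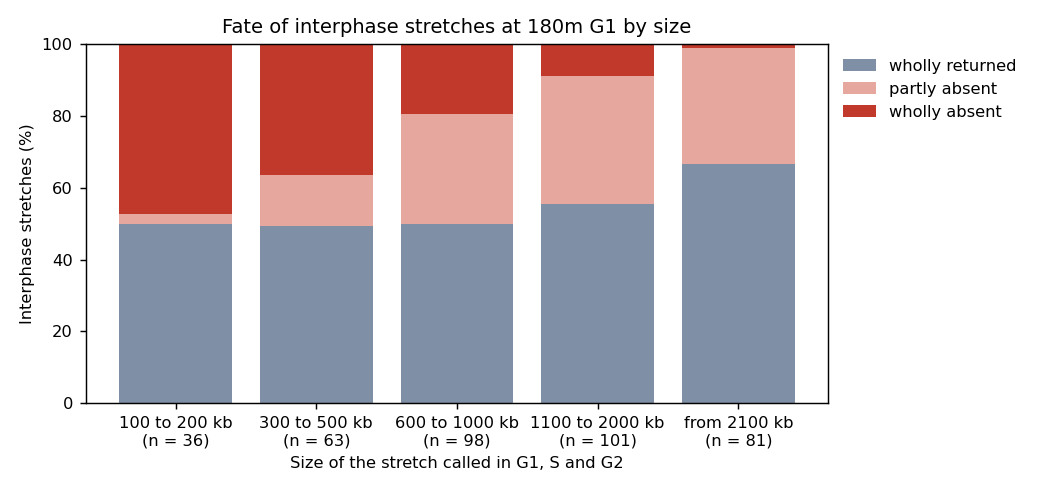
Bars give the percentage of interphase stretches in each size class that were wholly returned, partly absent or wholly absent at 180m G1, with the number of stretches under each bar. The wholly absent share goes from 47.2% in stretches of 100 to 200 kb to 1.23% in those from 2100 kb on.

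The longest absent stretch covered chr21:19400001-22900000, 3.5 Mb with a GC content of 35.1%, and formed the edge of a longer interphase stretch. It held 1 whole protein-coding gene, TMPRSS15, which codes for the intestinal protease enteropeptidase, and nearly all of NCAM2. Like the rest of chromosome 21, it had no call at 90 min. All 35 of its windows were called with 1000000, 200000 and 50000 cells, 32 in bulk cells, 13 in K562 cTSA-seq and 32 in K562 TSA-seq. In the map of this stretch, the 180m G1 call began where the absent stretch ended, inside the same interphase call.

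**Figure D4:**
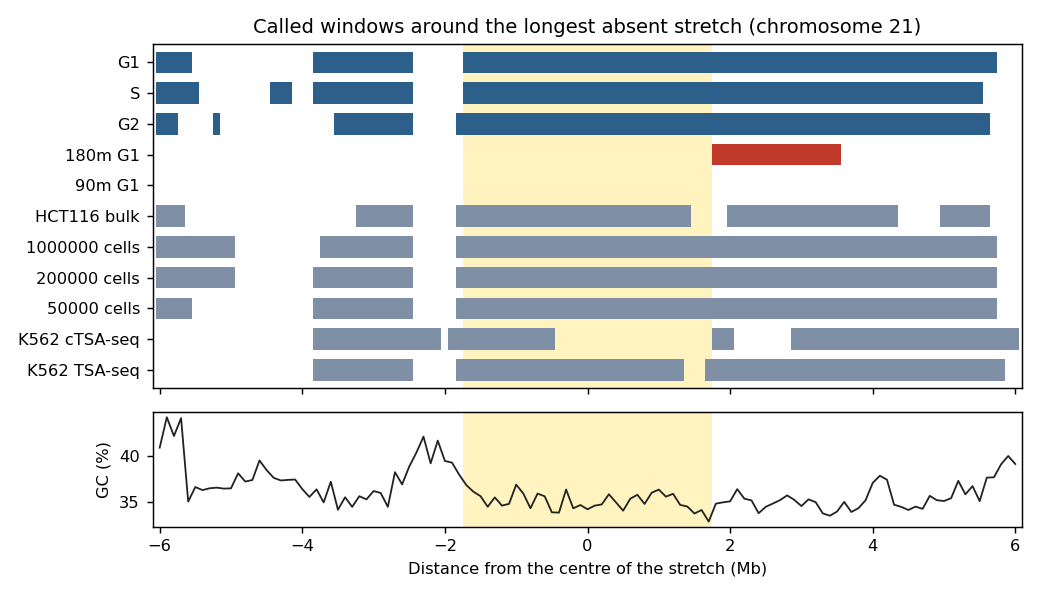
Bars mark the windows called in each list within 6 Mb of the centre of the longest absent stretch on chromosome 21, and the line below gives the GC content of each window in percent, against distance from the centre in Mb. The shaded 3.5 Mb are called in G1, S and G2 and have no call in 180m G1 or 90m G1, and only 18 of the 121 windows shown are called in 180m G1 against 94 in G1.

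The next in size was an interior gap of 2.6 Mb at chr10:55300001-57900000 around PCDH15, whose 26 windows were called in bulk, at all 3 cell numbers and in both K562 lists. Chromosome 21 also lacked a whole interphase stretch of 2.2 Mb, chr21:27900001-30100000, with the metalloproteases ADAMTS1 and ADAMTS5, and 2 Mb without a whole protein-coding gene at chr21:24700001-26700000. All 22 windows of the former were called in bulk and in both K562 lists, and 14 of the 20 of the latter in bulk. On chromosome 15, 2 Mb at chr15:46400001-48400000 held the semaphorin SEMA6D and was called in bulk over 10 of its 20 windows.

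Another 4 of the 10 longest lay on chromosomes 1, 5, 19 and 20. The stretch at chr1:104200001-105900000 reached the salivary amylase genes AMY1B and AMY1C, near-identical copies in which short reads cannot be placed with certainty. That at chr5:62200001-63900000 held the serotonin receptor HTR1A and the ubiquitin ligase RNF180. The stretch of TSHZ3, chr19:31100001-32600000, was called in K562 cTSA-seq over all 15 windows and in K562 TSA-seq over 0. No whole protein-coding gene lay in chr20:14700001-16200000. None of the 10 longest stretches had a window called at 90 min, but 4 of them lie on chromosomes 19 and 21, where the 90m G1 list has no region.

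The 90m G1 list played no part in the choice of the windows. It held 168 of the 823 absent windows (20.4%, Wilson interval 17.8 to 23.3%), 1607 of the 4685 returned windows (34.3%, 33.0 to 35.7%) and 17% of all windows. Without chromosome 21, where this list has no region, the shares were 23.4% of absent and 34.5% of returned windows. Chromosomes differed, and of the 22 that had both kinds of window the absent ones were called less at 90 min on 12, more on 8 and equally on 2. The 90m G1 list has no region at all on chromosomes 19 and 21, so the 48 and 105 absent windows there could not be called. No absent window was called on chromosomes 4, 13, 17, 22 and X either, of 5, 35, 21, 18 and 3, and none of the 38 returned windows of chromosome 17 was. Chromosome 10 had 33 of the called ones, chromosome 1 had 30 and chromosome 20 had 13, while none of the 54 returned windows of chromosome 20 was called.

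Position on the chromosome and GC content moved with the state at 90 min. In the outer 10% of the chromosome length at each end, 84 of 107 absent windows (78.5%, 69.8 to 85.2%) and 1035 of 1226 returned windows (84.4%, 82.3 to 86.3%) were called at 90 min. In the rest, the values were 84 of 716 (11.7%, 9.58 to 14.3%) and 572 of 3459 (16.5%, 15.3 to 17.8%). These counts include the 48 and 105 absent windows of chromosomes 19 and 21, which could not be called at 90 min. Of them 6 and 0 lay in the outer part, so they lower the absent share mostly in the rest. Returned windows that could not be called numbered 0 and 32 on these chromosomes. The interphase windows were also split by GC content into 5 bins of equal number, with bin 5 the richest in GC. In bin 5, 154 of 358 absent windows were called at 90 min (43.0%) against 594 of 744 returned ones (79.8%). The shares were 8.22% and 49.6% in bin 4, 1.77% and 31.7% in bin 3, 0% of 90 and 17.6% in bin 2, and 0% of 116 and 4.87% in bin 1. With chromosomes 19 and 21 included, the absent windows had the lower share in each of the 5 bins, with the widest gap in bin 4. The median GC content of the absent windows was 42.4% on chromosome 19 and 35.9% on chromosome 21. Shares by position or GC content without these chromosomes were not computed. What part position and GC content have in the difference was not tested.

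The 168 windows that were called at 90 min, missing at 180 min and present in G1, S and G2 lay in 62 stretches on 17 chromosomes. They had a median GC content of 43.3%, against 38.4% for the 655 absent windows without a call at 90 min. Their median distance to the nearer chromosome end was 14.4 Mb, against 29.0 Mb. Returned windows with and without a call at 90 min differed the same way, with 39.4% against 36.5% GC and 11.35 Mb against 40.45 Mb. In bulk HCT116 cells 99.4% of the 168 windows were called, against 99.6% of returned windows called at 90 min and 26.9% of all windows. The longest stretch of the 168 windows, chr20:58900001-60200000, measured 1.3 Mb and overlapped the cadherin gene CDH4. It was called in bulk over all 13 windows, in K562 cTSA-seq over 10 and in K562 TSA-seq over 0. The next were chr10:130000001-130800000, 0.8 Mb without a whole protein-coding gene, and chr1:34500001-35100000 with C1orf94.

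Bulk HCT116 cells, of which no list was used by the rule, had a call in 744 of the 823 absent windows (90.4%, 88.2 to 92.2%), against 98.8% of returned windows and 26.9% of all windows. The lists made from counted cells gave like values. The list from 1000000 cells held 85.3% of the absent and 96.4% of the returned windows (21.2% of all), that from 200000 cells 88.7% and 97.9% (21.9% of all), and that from 50000 cells 97.4% and 99.3% (22.8% of all). All 3 cell numbers called 668 absent windows, 81.2%, against 95.6% of returned and 19.1% of all windows. Bulk and all 3 cell numbers together called 596 absent windows (72.4%), 94.6% of the returned ones and 18.1% of all windows. None of the 823 absent and none of the 4685 returned windows was missing from all 4 of these lists, against 69.9% of all windows. Within chromosomes the absent windows were called less than the returned ones on 17 of 22 chromosomes and more on 3 with 1000000 cells, and on 15 and 5 with 200000 cells. In bulk they were called less on 10 and more on 9, and with 50000 cells less on 8 and more on 5.

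The 79 absent windows without a call in bulk lay in 23 stretches on 14 chromosomes. On chromosome 14 only 29 of 54 absent windows were called in bulk and on chromosome 22 only 5 of 18, whereas on chromosome 19 47 of 48 were. Among the longest stretches without a bulk call were 1.2 Mb at chr14:28000001-29200000 and 1 Mb at chr15:46400001-47400000.

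**Figure D5:**
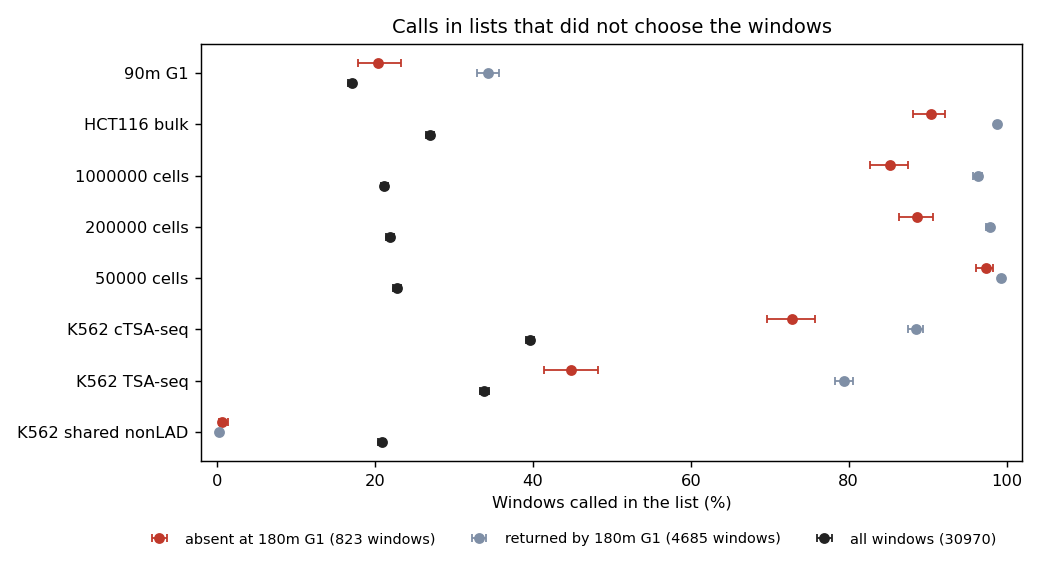
Points give the percentage of windows called in each list that the rule did not use, for absent windows, returned windows and all windows, with Wilson 95% intervals. Absent windows lie at 90.4% in HCT116 bulk and 44.8% in K562 TSA-seq, against 98.8% and 79.4% for returned windows.

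In K562 cells the cTSA-seq and TSA-seq lists gave different pictures of the absent windows. The published TSA-seq data were made by another group with another lamin antibody, so method, antibody and laboratory cannot be told apart here. K562 cTSA-seq called 599 of them (72.8%, 69.6 to 75.7%), against 88.5% of returned and 39.6% of all windows. K562 TSA-seq called 369 (44.8%, 41.5 to 48.2%), against 79.4% of returned and 33.9% of all windows. Both methods called 335 absent windows (40.7%, against 75.5% of returned and 30.1% of all windows), and neither called 190 (23.1%, against 7.58% and 56.6%). Those called by cTSA-seq alone numbered 264 (32.1%, against 13.0% and 9.52%), and those by TSA-seq alone 34 (4.13%, against 3.93% and 3.76%). Absent windows had the lower TSA-seq share on 20 of 22 chromosomes and the lower cTSA-seq share on 17. Over all windows the difference was -34.6 percentage points for TSA-seq and -15.7 for cTSA-seq. Leaving out the absent windows of chromosomes 19 and 22, which have no returned window to compare with, gave -30.7 and -12.3 over the other 757. Weighting the returned windows to the chromosomes of these 757 then gave -22.6 and -8.89.

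Here too GC content moved with the calls. In bin 1, the poorest in GC, 94.0% of absent and 97.9% of returned windows were called in K562 TSA-seq, in bin 2 93.3% and 96.4%, and in bin 3 85.8% and 93.1%. The shares were 45.2% and 74.2% in bin 4 and 3.63% and 20.3% in bin 5. For K562 cTSA-seq, 59.2% of absent and 76.7% of returned windows were called in bin 5, and 83.6% and 91.1% in bin 1. Absent windows called at 90 min had a call in K562 TSA-seq in 8.93% of cases, other absent windows in 54.0%. Among returned windows the 2 shares were 65.2% and 86.8%. Chromosome 21 went the other way, with 95 of its 105 absent windows called in K562 TSA-seq (90.5%) and 18 of its 32 returned ones (56.3%). The absent windows of chromosomes 12, 16, 17, 18, 19 and 22 had no call in K562 TSA-seq, and those of chromosomes 12 and 17 had none in K562 cTSA-seq either.

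Among the longest absent stretches without any K562 call were chr17:31500001-32600000 and chr19:22000001-22800000. The former held most of ASIC2, an acid-sensing ion channel, and the chemokines CCL2 and CCL7. The latter held ZNF208, ZNF257, ZNF676, ZNF729 and ZNF98. Regions that the authors' list gives as depleted by both methods in K562 included 5 absent windows (0.608%) and 9 returned ones (0.192%), against 20.9% of all windows. The 5 absent ones formed chr5:178300001-178600000, with ZFP2, ZNF454, ZNF879, ZNF354C and the glutamate receptor GRM6, and chr12:133500001-133700000, with ZNF26, ZNF84 and ZNF140. All 5 were also called at 90 min and in bulk HCT116 cells.

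The GC content of absent windows lay between that of returned windows and that of all windows. Their median GC content was 39.6% (95% interval of the median over windows 39.1 to 39.9%, range 32.9 to 53.3%), that of returned windows 37.3% (37.2 to 37.4%) and that of all windows 39.8%. The median was higher in absent than in returned windows on 19 of 22 chromosomes. CG dinucleotides numbered 8.03 per kb in absent windows, 6.93 in returned windows and 9.85 in all windows. The share of interphase windows that were absent was 10.5%, 8.17%, 10.3% and 13.3% in GC bins 1 to 4 and 32.5% in bin 5, which began at a GC content of 40.5%. Without chromosomes 19 and 22 bin 5 had 29.0%. The excess thus lay mostly in bin 5. Absent windows of chromosome 21 were poor in GC, with a median of 35.9%, against 35.5% in its returned windows. The median was lower in absent than in returned windows on chromosomes 14, X and Y.

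A smaller share of absent than of returned windows lay near chromosome ends. In the outer 10% of the length at each end there were 107 absent windows (13.0%, 10.9 to 15.5%), against 26.2% of returned and 20% of all windows. Within 5 Mb of an assembly gap of at least 1 Mb, most of which mark centromeres and satellite arrays, there were 159 absent windows (19.3%, 16.8 to 22.2%), against 5.83% of returned and 14.2% of all windows. The last share also counts windows inside these gaps, which hold no sequence. No absent or returned window lay there, so the share of all windows is not a like comparison. Chromosome 18 had 15 of its 23 absent windows in the outer part and chromosome 10 had 24 of 68. The acrocentric chromosomes 13, 14, 15, 21 and 22 had 4 of 35, 1 of 54, 6 of 68, 0 of 105 and 0 of 18. Outer shares of absent and returned windows were not compared within chromosomes. The part that the mix of chromosomes has in the difference was not tested.

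Genes were sparse in the absent windows. A gene was assigned to a class of windows that covered 80% or more of it. By this count absent windows held 152 protein-coding genes (0.754% of all), or 1.85 per Mb (95% Poisson interval 1.56 to 2.16). Returned windows held 534 (2.65%), or 1.14 per Mb, and the genome as a whole 6.51 per Mb. Of the 152 genes 32 were keratin-associated and lay in 1 stretch of chromosome 21, and without them the density was 1.46 per Mb. Of the 189 absent stretches 136 had no whole protein-coding gene. The median length of the 152 genes was 15.7 kb, but that of the 120 without the keratin-associated genes was 29.6 kb, close to the 29.8 kb of genes in returned windows. Of the 120 genes 18 (15%) exceeded 200 kb, against 28.5% in returned windows. Absent stretches had a median of 300 kb and returned ones 1000 kb, so fewer long genes could reach 80% in the former. Gene lengths in the 2 classes are therefore not like for like. A further 93 protein-coding genes lay in absent windows over less than 80% of their length.

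Among the longest genes, PCDH15 came first with 1825 kb, followed by ASIC2 with 1162 kb, NCKAP5 with 897 kb and the synaptic vesicle priming factor UNC13C with 651 kb. Then came the protein kinase PRKD1, SEMA6D, NCAM2 and the potassium channel KCNH5, with 403 to 615 kb. Shorter ones were C10orf90, the AMPA receptor auxiliary subunits SHISA9 and SHISA6, the transporter SLCO3A1, the Polycomb group gene SFMBT2, the GDNF receptor GFRA1, TMPRSS15, RNF180, TSHZ3 and the lipid flippase ATP10A, with 188 to 374 kb. At 90 min C10orf90, SLCO3A1, SFMBT2 and GFRA1 were called over their whole length, and the other genes named here not at all. In bulk ASIC2 was called over 86.1% and NCAM2 over 42.1% of its length, and the other genes named here over all of it. In K562, PCDH15, UNC13C, KCNH5, GFRA1, TMPRSS15 and RNF180 were called over their whole length by both methods, and ASIC2, SHISA9, SHISA6 and SFMBT2 by neither. C10orf90, SLCO3A1, TSHZ3 and ATP10A were called over their whole length by cTSA-seq but not by TSA-seq.

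Gene families that are known to cluster in LADs divided unequally between absent and returned windows. Of all protein-coding genes 0.754% lay in absent and 2.65% in returned windows. Among 94 keratin-associated genes 32 lay in absent and 0 in returned windows, all in chr21:31200001-32300000 together with the tight junction genes CLDN8 and CLDN17. All 32 were called in bulk and by both methods in K562, and at 90 min chromosome 21 had no call anywhere. Among 515 ZNF genes 23 lay in absent windows and 7 in returned ones. The 23 had 16 on chromosome 19, 4 on chromosome 12 and 3 on chromosome 5. The 180m G1 list has no region on chromosome 19, so the 16 there could not lie in returned windows. On the other chromosomes 7 lay in absent and 7 in returned windows. Of these 23, the 7 on chromosomes 5 and 12 were called at 90 min and in the depleted list of K562, and none had a call by either method in K562. The longest were ZNF98, ZNF208, ZNF93, ZNF90, ZNF26 and ZNF682, and only ZNF93 had no call in bulk.

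Olfactory receptors lay more often in returned windows. Of 415 measured genes 12 (2.89%) lay in absent and 115 (27.7%) in returned windows, against 0.754% and 2.65% of all protein-coding genes. Of the 12, 7 were on chromosome 14, among them OR4N2, OR4M1, OR4K2 and OR4Q3, 2 on chromosome 1, 2 on chromosome 11 and 1 on chromosome 22. In bulk 6 of the 12 were called over their whole length and 5 not at all. Clusters of olfactory receptors hold similar copies, so the placement of reads there is less certain.

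The other lists had 0 to 3 genes in absent windows. Where a list below had any, they made up 2.14 to 3.85% of it, against 0.754% of all protein-coding genes. Returned windows held 2.65% of all protein-coding genes. Synaptic adhesion genes numbered 46, with NCAM2 in absent and 22 in returned windows. Cadherins and protocadherins numbered 36, with PCDH15 in absent and 11 in returned windows. Genes with symbols that begin with KCN, SCN or CACN, mostly of ion channel subunits, numbered 140. Of them KCNH5, KCNJ15 and KCNK9 were in absent windows and 9 in returned ones. KCNK9 was called at 90 min. Glutamate receptors had GRM6 in absent and 1 gene in returned windows, of 26 measured. Taste receptors had 0 of 24 genes in absent and 1 in returned windows. The 40 beta-defensins and 86 ribosomal protein genes had none in either. Neighbouring genes of a family share a stretch, so these counts are not independent.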

How the data were processed

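The labels describe lamin-B1 cTSA-seq libraries of streptavidin pull-down and input from HCT116 and K562 cells. The authors aligned reads to hg19 with Bowtie2 2.3.2, removed duplicates, counted reads in windows with bedtools 2.26.0, scaled libraries to the same total, and turned log2 ratios of pull-down to input into z-scores for a 3-state Hidden Markov Model. What they deposited and what was used here are region starts and ends in bp, with no signal or count, so depth is unknown. The study's methods intersect the calls of replicates. The other HCT116 and K562 cTSA-seq lists are named as such a consensus, while those for 90m G1 and 180m G1 do not carry the name. Of 14 deposited lists 12 were used, and the lists of K562 regions shared by both methods and of cTSA-seq only regions were not, since they follow from the others. A mitochondrial region of the 50000-cell list and an unplaced region of the K562 depleted list were left out.

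A window counted as called when a region held all of it. Shares of all windows count windows without sequence too, since only 28766 of the 30970 hold any. GC content and gaps came from the hg19 sequence, genes from GENCODE release 44 mapped to hg19, and promoters from RefSeq. The outer part of a chromosome was 10% of its length at each end. Python 3.11.15 with numpy 2.4.6, pandas 2.3.3, scipy 1.17.1 and matplotlib 3.10.9 was used, and the procedures were checked on simulated lists. With 1 list per condition no test was possible. Some genes, stretches and gene lists under the rule for named items are not reported here. Named items were the 10 longest absent stretches with their whole protein-coding genes, the 20 longest genes, the 3 longest stretches called at 90 min and of the K562 depleted list, and up to 6 genes per gene list. Others, such as chromosomes at the extremes and stretches missing from bulk or K562, were chosen after their values were seen. The windows and gene lists were chosen with earlier results of these data known. Alternatives were autosomes only, windows away from a 180m G1 border, stretches of at least 300 kb, windows also called in bulk, other widths of the outer part, gene shares of 50%, all gene types, and dropping chromosomes one by one. Chosen after seeing the data were returned windows weighted to the chromosomes of the absent ones, densities and gene lengths without keratin-associated genes, values without chromosomes 19 and 22, and splits by position and by 5 bins of GC content.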

Additional observations from a re-analysis of the deposited data

How the results depend on the processing

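No paired analysis was possible because every condition is 1 merged list and no result comes from a test. No value changed direction. Values weighted by chromosome leave out chromosomes 19 and 22, which have no returned window; without weighting, the remaining 757 absent windows gave -12.1 for 90 min, -7.41 for bulk, -12.3 for K562 cTSA-seq and -30.7 for K562 TSA-seq. The share of interphase windows absent, 14.9%, was 16.5% on autosomes, 13.7% without windows bordering a 180m G1 region, 13.0% for stretches of at least 300 kb, 13.8% for windows called in bulk, and 13.4 to 16.5% with a chromosome left out. The median stretch of 300 kb became 500 kb among stretches of at least 300 kb and the mean was 435 kb, while leaving out a chromosome kept 300 kb. Absent minus returned windows, in percentage points: the 90 min difference of -13.9 was -16.9 without border windows, -17.3 for stretches of at least 300 kb, -9.64 with returned windows weighted by chromosome and -15.9 to -11.1 without a chromosome. The bulk difference of -8.43 was -5.81 when weighted and -9.25 to -6.03 without a chromosome, with -6.03 lacking chromosome 14. All 3 cell numbers gave -14.4, with -11.2 for stretches of at least 300 kb and -17.1 to -12.7 without a chromosome. K562 cTSA-seq gave -15.7, weighted -8.89, and -17.6 to -13.7 without a chromosome, and K562 TSA-seq -34.6, weighted -22.6, and -41.4 to -31.8, the first of these without chromosome 21. The K562 depleted list gave 0.415 and 0.044 to 0.523, and the low value lacks chromosome 5. Median GC differed by 2.32 points, by 1.83 for stretches of at least 300 kb and by 1.95 to 3.04 without a chromosome. Gene density differed by 0.71 per Mb, by 4.39 for all gene types, by 0.32 without keratin-associated genes and by 0.43 to 0.82 without a chromosome, with 0.43 lacking chromosome 21. The difference in the outer part, -13.2, was -3.03 for 2.5% of the length, -22.3 for 20%, and -15.1 to -11.4 without a chromosome. The cause of these shifts was not tested. The lists carry no depth, so precision between experiments is unknown.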
